A study of Arabidopsis thaliana with 6 samples.

Results

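The alpha-expansins of Arabidopsis thaliana were compared between wild-type seedlings and seedlings of the mutant rns2-2 on Affymetrix ATH1 arrays. Members were taken by name: every locus whose symbol is EXPA followed by a number and that has a probe set paired with that locus alone. This gave 10 genes, EXPA4, EXPA7, EXPA8, EXPA9, EXPA15, EXPA16, EXPA18, EXPA20, EXPA21 and EXPA24, out of 24 EXPA loci in the gene table and 13286 named loci on the arrays. Each of the 10 was read by 1 probe set. The other 14 EXPA loci were not analysed here as single genes.

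All samples were whole seedlings, 10 days old, of the Col-0 background, grown on MS-agar under long days. The control group was wild-type Col-0 and the other group carried rns2-2, an allele of RNS2, with 3 arrays per genotype. RNS2 encodes an RNase T2 enzyme of the vacuole and endoplasmic reticulum, known for its part in the turnover of ribosomal RNA. Nothing in the labels describes another allele, transgene or treatment. A whole seedling mixes root and shoot, so a higher signal from more cells of a type and from more RNA per cell cannot be told apart. No probe set was paired with RNS2, so its level was not analysed here. Both organs were represented on every array: PYK10, a root beta-glucosidase, had log2 signals from 12.45 to 12.83, and RCA, the leaf enzyme Rubisco activase, from 13.66 to 14.14.

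Alpha-expansins are secreted proteins that loosen the wall of growing plant cells without cutting its polymers. They act best at acid pH, after proton pumps have acidified the wall, and are thought to weaken the contacts between cellulose and the other polysaccharides, so that turgor can stretch the cell. Different members serve different cells: EXPA7 and EXPA18 are known for their activity in root hair cells, the tip-growing cells of the root surface. Beta-expansins and expansin-like proteins form the other classes of the superfamily.

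EXPA4, EXPA15 and EXPA8 stood highest in rns2-2 relative to Col-0 among the alpha-expansins, with log2 differences of 1.63, 1.25 and 0.98, but none of the 10 members passed the test across all probe sets. The test was limma's moderated test with Benjamini-Hochberg adjustment over 22746 probe sets and a threshold of 0.05. It called 0.0044% of all probe sets, which is 1 probe set, and that one was no expansin. The 2 root-hair expansins had log2 differences of 0.11 (SE 0.45) for EXPA7 and 0.25 (SE 0.28) for EXPA18. Small values were not particular to this pair. EXPA9, EXPA16, EXPA20, EXPA21 and EXPA24 stood at 0.36, 0.32, 0.27, -0.01 and -0.14. EXPA4, EXPA15 and EXPA8 were also the only members with a signal above the array median on every array. Without adjustment, 2 of the 10 members, EXPA4 and EXPA15, had a limma p under 0.05 and were higher, where 5.35% of all probe sets were so. The same 2 members had all rns2-2 arrays above all Col-0 arrays, which 7.23% of all probe sets had, and 0 members had all rns2-2 arrays below, as 11.2% of all probe sets had. Of the 10 members, 8 had a difference above 0, beside 42.8% of all probe sets. The median difference was 0.30 over the 10 members and -0.04 over all probe sets.

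The arrays of a genotype were not equally far from each other. Between replicates 2 and 3, the SD of the log2 difference over all probe sets was 0.20 for Col-0 and 0.31 for rns2-2. Replicate 1 lay farther from both, at 0.58 to 0.61 in either genotype, and was closer to the arrays of the other genotype. That of Col-0 lay at 0.51 to 0.56 from the mutant arrays. That of rns2-2 lay at 0.54 to 0.58 from the Col-0 arrays, against 0.59 and 0.61 from the other rns2-2 arrays. The labels describe 3 independent samples per genotype, and no source used here says whether replicates 2 and 3 had anything in common, in which case the p-values would be too small. RNA quality was read from the control probe sets for actin, GAPDH and ubiquitin, as the mean log2 signal at the 3' end less that at the 5' end. For replicates 1 to 3 this difference was 2.43, 1.19 and 1.53 with the wild type, against 0.79, 1.17 and 1.65 with the mutant.

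**Figure D1:**
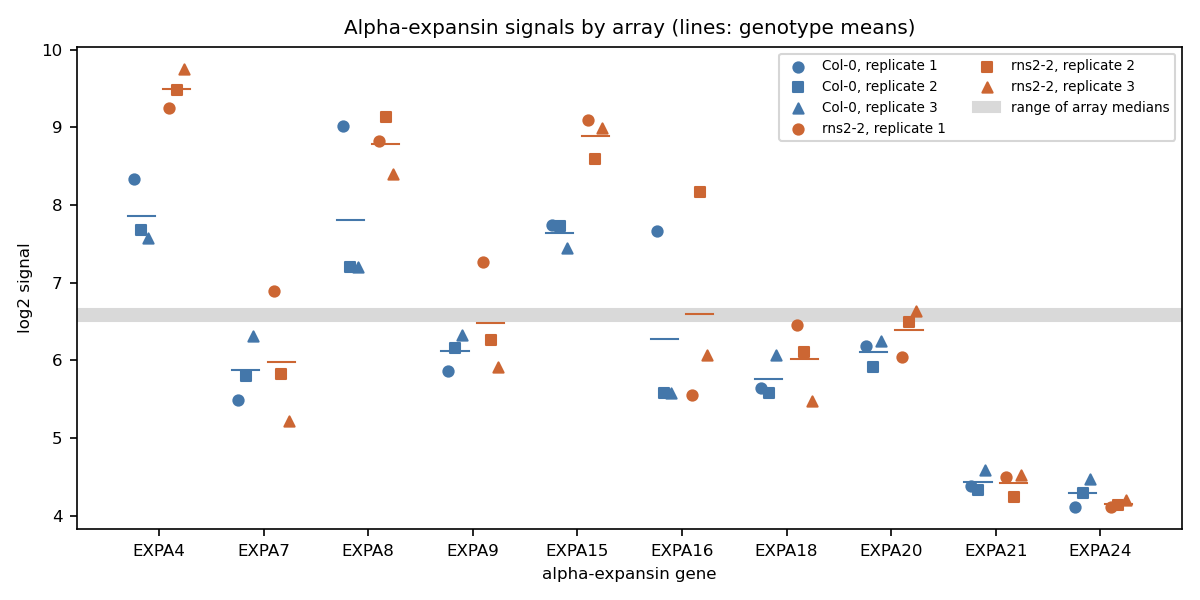
Log2 signal (vertical axis) of the 10 alpha-expansins on each of the 6 arrays, Col-0 in blue and rns2-2 in orange, with the marker shape giving the replicate, short lines the genotype means and a grey band the range of array medians, 6.51 to 6.66. EXPA4 and EXPA15 show no overlap between genotypes, while EXPA16 spreads from 5.55 to 8.17 within rns2-2.

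The members fell into brightness classes that the naming rule did not use. EXPA4, EXPA8 and EXPA15 were above the array median on all 6 arrays. EXPA7, EXPA9 and EXPA16 were above it on 1, 1 and 2 arrays. EXPA18, EXPA20, EXPA21 and EXPA24 were below it on every array. Probe sets bind with different efficiency, so these positions describe the signal and do not rank the genes by transcript amount. No detection calls were used, and a signal below the median could not be separated from background.

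EXPA4, at AT2G39700 on chromosome 2, had the largest difference of the family. Its log2 signals were 8.33, 7.68 and 7.57 in Col-0, against 9.25, 9.48 and 9.75 in rns2-2. The lowest rns2-2 array lay above the highest Col-0 array, and replicate 1 of Col-0 was the nearest to the mutant. The means were 7.86 ± 0.41 and 9.49 ± 0.25 (SD, n = 3 arrays each), a 3.10-fold higher signal in rns2-2. The log2 difference was 1.63 (SE 0.24, 95% interval 1.05 to 2.22), with a limma adjusted p of 0.275. Without replicate 1 of Col-0 the difference was 1.87 and passed, with a limma adjusted p of 0.0247, in a fit that called 1.46% of all probe sets. Over all alternative settings the limma adjusted p of EXPA4 ran from 0.000189 to 0.935 and the difference from 1.45 to 1.99. The low p came with replicates 2 and 3 only, where 14.3% of all probe sets passed. The high p came with these replicates averaged, where EXPA8 and EXPA15 had the same adjusted p.

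EXPA4 lies close to the mutated gene. In the RefSeq gene table, 14 loci separate it from RNS2 on chromosome 2, of which 9 code for proteins and 5 had a named probe set. The log2 differences of those 5 loci were all below 0, at -0.09 (SE 0.15) for RCA, -0.13 (SE 0.16) for AT2G39750, -0.12 (SE 0.13) for BPM3, -0.63 (SE 0.33) for AT2G39725 and -0.04 (SE 0.48) for AT2G39710. Of all 22746 probe sets, 13010 had a difference below 0. For each of the 5 loci the genotypes overlapped, as they did for most probe sets. Of all probe sets, 7.23% had all rns2-2 arrays above and 11.2% all below. With 1 mutant allele, effects of the altered locus on its surroundings and effects of the lack of RNS2 cannot be told apart. EXPA8 lies on the same chromosome with 114 loci between it and RNS2, and EXPA15 with 4887.

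EXPA15, at AT2G03090, showed the tightest replicates among the bright members. Its log2 signals were 7.75, 7.73 and 7.45 in Col-0, against 9.10, 8.60 and 8.99 in rns2-2. The genotypes were separated by more than the range within either of them, 0.30 in Col-0 and 0.50 in rns2-2. The means were 7.64 ± 0.17 and 8.89 ± 0.26 (SD, n = 3), a 2.38-fold higher signal in rns2-2. The log2 difference was 1.25 (SE 0.17, 95% interval 0.84 to 1.66; limma adjusted p = 0.260). It passed with replicates 2 and 3 only (limma adjusted p = 0.00382, where 14.3% of all probe sets passed) and with array weights (0.0448, where 1.91% passed), and its adjusted p ran up to 0.935 with these replicates averaged.

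EXPA8, at AT2G40610, depended on a single Col-0 array. Its log2 signals were 9.01, 7.20 and 7.21 in Col-0, against 8.83, 9.14 and 8.40 in rns2-2. The first of these Col-0 arrays, replicate 1, was at the mutant level, above 2 of the 3 rns2-2 arrays, and the other Col-0 arrays were below every rns2-2 array. The means were 7.81 ± 1.04 and 8.79 ± 0.37 (SD, n = 3; log2 difference 0.98, SE 0.52, limma adjusted p = 0.538). Without replicate 1 of Col-0 the difference was 1.58 (SE 0.23, limma adjusted p = 0.0484). Over all alternatives the limma adjusted p of EXPA8 ran from 0.00352, with replicates 2 and 3 only, to 0.935, with these averaged. In replicate 1 of Col-0 the 3' minus 5' difference of the control transcripts was also the highest of the 6, at 2.43, and its part in the EXPA8 value was not tested.

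**Figure D2:**
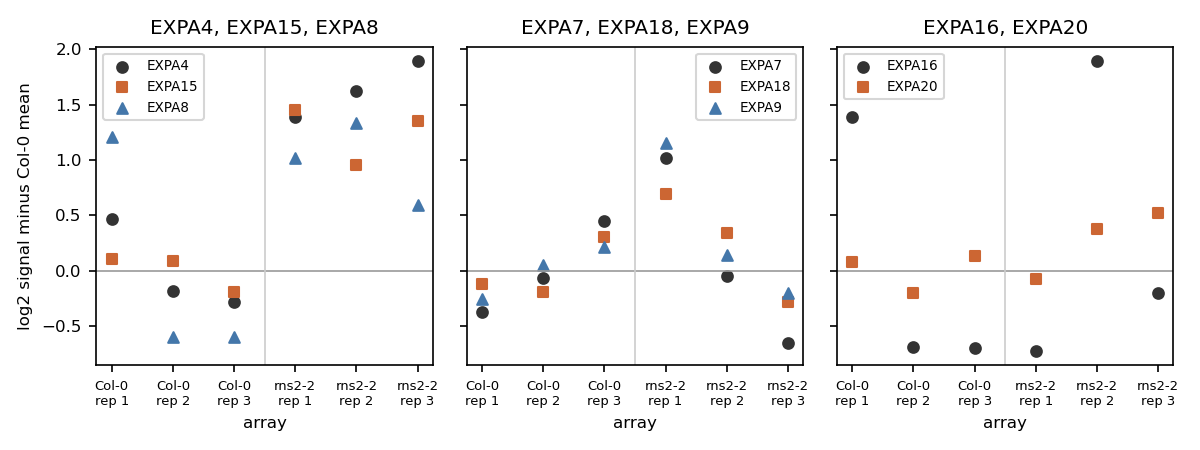
Log2 signal relative to the Col-0 mean of the same gene (vertical axis) on each array (horizontal axis; a vertical line divides the genotypes) for 8 alpha-expansins. In the left panel EXPA4 and EXPA15 are higher on all rns2-2 arrays and EXPA8 is also high in replicate 1 of Col-0; in the middle panel EXPA7, EXPA18 and EXPA9 peak together in replicate 1 of rns2-2; in the right panel EXPA16 is high on 1 array of each genotype.

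For the root-hair expansins the spread within rns2-2 exceeded the difference between genotypes. EXPA7, at AT1G12560, had log2 signals of 5.50, 5.80 and 6.32 in Col-0, against 6.89, 5.82 and 5.22 in rns2-2. The rns2-2 group held both the highest and the lowest array of the 6, so the genotypes overlapped fully. The means were 5.87 ± 0.42 and 5.98 ± 0.85 (SD, n = 3; log2 difference 0.11, SE 0.45, limma adjusted p = 0.939). The 95% interval ran from -0.98 to 1.19, so the data do not exclude changes within those bounds.

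EXPA18, at AT1G62980, had log2 signals of 5.65, 5.58 and 6.07 in Col-0, against 6.46, 6.10 and 5.48 in rns2-2. As for EXPA7, the highest and the lowest of the 6 arrays were replicates 1 and 3 of rns2-2. The means were 5.77 ± 0.27 and 6.01 ± 0.49 (SD, n = 3; log2 difference 0.25, SE 0.28, 95% interval -0.42 to 0.92, limma adjusted p = 0.741). Single arrays moved both values. Without replicate 1 of rns2-2, EXPA7 stood at -0.35 and EXPA18 at 0.025, and without replicate 1 of Col-0 EXPA7 stood at -0.082. With replicates 2 and 3 only, EXPA7 stood at -0.54 and EXPA18 at -0.034.

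EXPA9, at AT5G02260, had the pattern nearest to EXPA7 among the members. Its log2 signals were 5.86, 6.16 and 6.33 in Col-0, against 7.27, 6.26 and 5.91 in rns2-2. Here too replicate 1 of rns2-2 was the highest array, and replicate 1 of Col-0 the lowest. The means were 6.12 ± 0.24 and 6.48 ± 0.70 (SD, n = 3; log2 difference 0.36, SE 0.36, limma adjusted p = 0.704). Likeness was measured as the root mean square difference over the 6 arrays between log2 profiles, each relative to its own mean, and after the values had been seen it was ranked over all named loci. EXPA9 was at 0.20 from EXPA7 and ranked 10 among 13285 loci, and EXPA18 was at 0.28 and ranked 71. EXPA4 and EXPA8 were at 1.09 and 1.02 from EXPA7, at ranks 13023 and 12931. The profiles were not scaled to a common range, and EXPA4 and EXPA8 ranged over 2.18 and 1.93 across the arrays. Their ranks therefore depend in part on the size of their variation and do not by themselves show an opposed pattern.

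Replicate 1 of rns2-2, the array where EXPA7, EXPA9 and EXPA18 were highest, had the smallest 3' minus 5' difference, 0.79. The array with the largest, 2.43 in replicate 1 of Col-0, was lowest for EXPA9 but not for EXPA7 or EXPA18, which were lowest at 1.65, in replicate 3 of rns2-2. The root marker PYK10 was also highest in replicate 1 of rns2-2, at 12.83, next to 12.81 in replicate 2 of rns2-2. In Col-0 PYK10 stood at 12.45, 12.45 and 12.73, and in replicate 3 of rns2-2 at 12.58. The part of RNA quality or of root content in the EXPA7 profile was not tested.

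Set against each other by array, the root-hair pair and the 8 other alpha-expansins did not separate by genotype beyond the spread. The mean of EXPA7 and EXPA18, relative to its Col-0 mean, was -0.25, -0.13 and 0.38 in Col-0, against 0.85, 0.14 and -0.47 in rns2-2. The mean of the 8 others was 0.34, -0.21 and -0.14 in Col-0, against 0.51, 0.75 and 0.49 in rns2-2. The mean of the others was thus higher on every rns2-2 array than on any Col-0 array, but among these 8 genes only EXPA4 and EXPA15 were so as single genes. The mean of the root-hair pair overlapped between genotypes. The mean log2 difference was 0.18 for the root-hair pair and 0.58 for the 8 others, whose median was 0.34. The gap between these, -0.41, was smaller than the SD over arrays of the same quantity, 0.56 in Col-0 and 0.67 in rns2-2. It was -1.08 with replicates 2 and 3 only, -0.073 with these averaged into 1 sample and -0.17 with medians in place of means, and no p is given for a score over chosen genes.

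**Figure D3:**
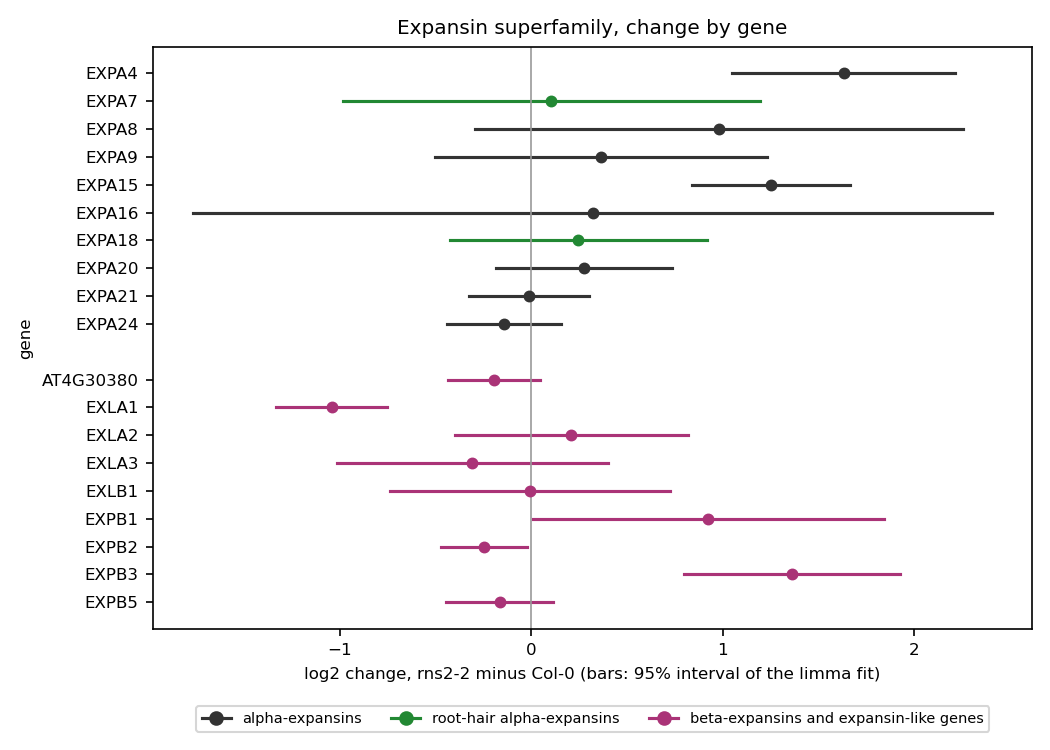
Log2 difference, rns2-2 minus Col-0 (horizontal axis), of the 10 alpha-expansins and of 9 beta-expansin and expansin-like genes, with 95% intervals of the limma fit over 3 arrays per genotype. The intervals of EXPA4, EXPA15, EXPB3 and, narrowly, EXPB1 lie above 0. Those of EXLA1 and, narrowly, EXPB2 lie below it, without adjustment for the number of probe sets. Those of EXPA7 and EXPA18, in green, span 0, as do those of EXPA8, EXPA9, EXPA16, EXPA20, EXPA21 and EXPA24.

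EXPA16, at AT3G55500, was the least steady member. Its log2 signals were 7.66, 5.59 and 5.58 in Col-0, against 5.55, 8.17 and 6.07 in rns2-2. It was high on replicate 1 of Col-0 and replicate 2 of rns2-2 and near 5.6 to 6.1 elsewhere. The means were 6.28 ± 1.20 and 6.60 ± 1.38 (SD, n = 3; log2 difference 0.32, SE 0.86, limma adjusted p = 0.896). Its within-genotype SD of 1.30 was larger than that of 99.2% of all probe sets, whereas that of EXPA15, 0.22, stood at percentile 56.3. The 2 arrays high in EXPA16 differed in the 3' minus 5' difference, 2.43 and 1.17. They were also the arrays highest in EXPA8, at 9.01 and 9.14.

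EXPA20, at AT4G38210, had log2 signals of 6.19, 5.91 and 6.24 in Col-0, against 6.04, 6.49 and 6.64 in rns2-2. Replicates 2 and 3 of rns2-2 were above every Col-0 array and replicate 1 was not. The log2 difference was 0.27 (SE 0.19, 95% interval -0.18 to 0.73, limma adjusted p = 0.606), and it ran from 0.15 to 0.49 over the alternatives tried.

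EXPA21 and EXPA24 mark the ends of a row of 6 neighbouring expansin loci on chromosome 5, AT5G39260 to AT5G39310. EXPA21 had log2 signals of 4.38, 4.34 and 4.59 in Col-0, against 4.50, 4.24 and 4.52 in rns2-2. EXPA24 stood at 4.11, 4.30 and 4.47 in Col-0, against 4.12, 4.14 and 4.21 in rns2-2. Both were dim, at percentiles 17.3 and 12.1 of brightness among all probe sets, and the genotypes overlapped. The log2 differences were -0.01 (SE 0.13) and -0.14 (SE 0.12), with limma adjusted p of 0.976 and 0.670. The 4 loci between them share 2 probe sets, which bind more than 1 gene and are therefore no members. The probe set of EXPA22 and EXP26 had a mean of 4.42 in Col-0 and 4.13 in rns2-2 (log2 difference -0.29, SE 0.10, limma adjusted p = 0.410), with all rns2-2 arrays below. That of EXPA23 and EXPA25 stood at 4.58 and 4.46 (log2 difference -0.12, SE 0.11, limma adjusted p = 0.679). All of these levels were in the range that could not be separated from background.

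**Figure D4:**
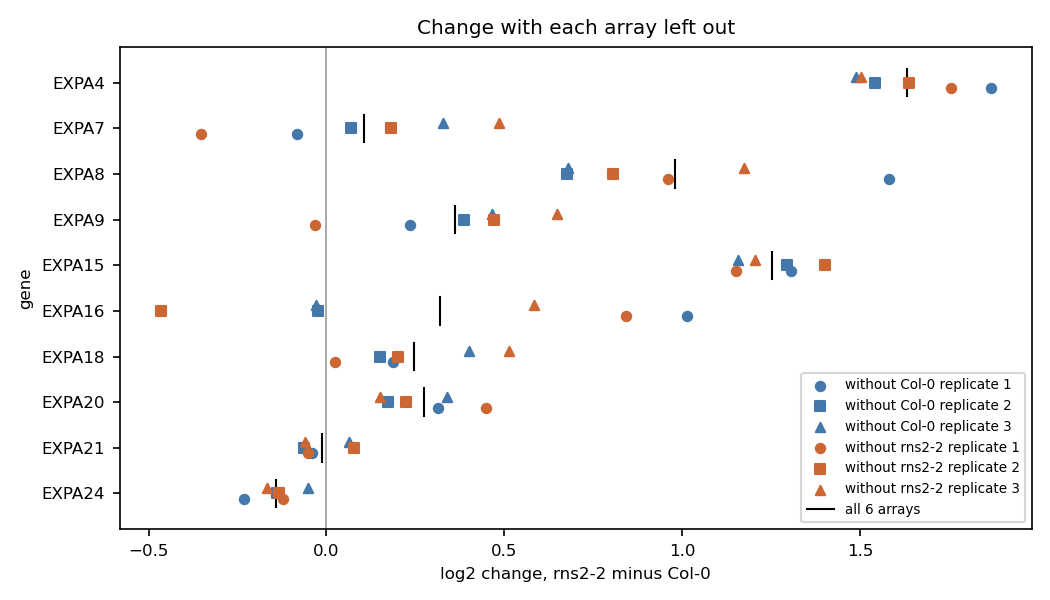
Log2 difference, rns2-2 minus Col-0 (horizontal axis), of each alpha-expansin with all 6 arrays (black line) and with each array left out in turn (blue, a Col-0 array left out; orange, an rns2-2 array; marker shape, the replicate). EXPA4 stays between 1.49 and 1.87 and EXPA15 between 1.15 and 1.40, while EXPA16 runs from -0.46 to 1.01 and EXPA7 from -0.35 to 0.49.

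The other classes of the superfamily gave a mixed picture. Of 9 measured beta-expansin and expansin-like genes, 3 had differences above 0 and 6 below, with a median of -0.16, and 0 passed with limma over all probe sets. Without adjustment, 2 were higher and 2 lower at a limma p under 0.05, beside 5.35% and 5.31% of all probe sets. EXPB3, a beta-expansin, had log2 signals of 7.87, 7.37 and 7.28 in Col-0, against 9.24, 8.59 and 8.76 in rns2-2, with no overlap (log2 difference 1.36, SE 0.23, limma adjusted p = 0.277). EXPB1 stood at 4.96, 4.67 and 4.66 against 6.54, 5.48 and 5.04 (log2 difference 0.92, SE 0.38, limma adjusted p = 0.464), and was below the array medians throughout. EXPB1 thus also had its highest signal in replicate 1 of rns2-2. EXPB2 and EXPB5 had differences of -0.25 and -0.16, and were likewise below the array medians throughout.

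The expansin-like genes resemble expansins in sequence. EXLA1 had log2 signals of 10.00, 9.93 and 9.93 in Col-0, against 8.73, 8.94 and 9.06 in rns2-2, the opposite direction to EXPA4 (log2 difference -1.04, SE 0.12, limma adjusted p = 0.239). EXLA2 and EXLA3, of the same class, had differences of 0.21 (SE 0.25) and -0.31 (SE 0.29), and their genotypes overlapped. EXLB1 stood at -0.01 (SE 0.30) and AT4G30380, also known as EXLB2, at -0.19 (SE 0.10). EXLA3 and AT4G30380 were below the array medians throughout.

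Genes with other roles in wall growth and root hairs were read from lists by symbol. Of 10 measured xyloglucan endotransglucosylases, enzymes that cut and rejoin xyloglucan, 7 had differences above 0, beside 42.8% of all probe sets, and 0 passed with limma, with a median of 0.22. At an unadjusted limma p under 0.05, XTH20 and XTH16 were higher, at 0.85 (SE 0.27) and 0.67 (SE 0.26), and EXGT-A3 lower, at -0.64 (SE 0.21), beside 5.35% of all probe sets higher and 5.31% lower. XTH20 was below the array medians throughout. Of 3 pectin methylesterases, 2 were above 0, with a median of 0.53, and 0 passed with limma or had an unadjusted p under 0.05.

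Of the root hair genes, 3 had a named probe set. Markers named in the plan, such as COBL9, RSL4 and LRX1, were not among them. The measured genes therefore cannot show whether root hair content differed. FER, a receptor kinase that takes part in root hair growth, differed by 0.15 (SE 0.12), and TRY, a small MYB protein of epidermal patterning, by -0.12 (SE 0.21). TRY was below the array medians throughout. The genotypes overlapped for FER and TRY, and 0 of the 3 passed with limma or had an unadjusted p under 0.05. The root list held PYK10, at 0.20 (SE 0.13), and PEP, an RNA-binding protein gene not particular to roots, at -0.30 (SE 0.14). For the lists of proton pumps, SAUR genes, cellulose synthases and shoot markers, 0 symbols matched a named probe set. These genes were not analysed here, whether or not the arrays hold probe sets for them.

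By the same measure of likeness, restricted to named loci brighter than the median, the nearest profiles were read for EXPA4, EXPA15, EXPA7 and EXPA18. For EXPA4 the nearest of 5967 loci were AT5G07030, AT1G03820 and GH9C2, an endoglucanase, at root mean square differences of 0.18, 0.22 and 0.23. GH9C2 had a log2 difference of 1.64 (limma adjusted p = 0.239), about that of EXPA4 itself. Its selection by likeness to EXPA4 on the same arrays fixes this closeness in part. For EXPA15 they were AT1G74460, EXPB3 and AT3G56370, at 0.12, 0.18 and 0.19, so that a beta-expansin was among the 3 nearest profiles. EXPA15 was in turn the member nearest to EXPA4, at 0.35, rank 22 of 13285 named loci.

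For EXPA18 the nearest of 5968 loci were AT3G20370, AT3G25580 and AT2G22230, at 0.068, 0.13 and 0.14. AT3G20370 followed EXPA18 closely at a far brighter signal, with 9.24, 9.19 and 9.57 in Col-0, against 10.16, 9.67 and 9.00 in rns2-2. For EXPA7 they were AT1G62660, GSTU26, a glutathione transferase, and AT2G16460, at 0.16, 0.19 and 0.19. The log2 differences of these 6 loci ran from -0.00123 to 0.37, a range that their selection by likeness to EXPA7 and EXPA18 fixes in part. Profiles over 6 arrays of 2 genotypes share their libraries, and loci with small variation lie near each other by this measure.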

How the data were processed

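Biotin-labelled RNA from 6 samples of whole seedlings was hybridised to 1 array each. The deposited values are log2 signals per probe set, with the scale read from the values. Per the submitters' processing notes, the authors used Affymetrix Expression Console. Which algorithm and version ran, and whether arrays were normalized to each other, is not given in the sources used here. Array medians ran from 6.51 to 6.66.

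Of 22810 probe sets, 64 controls were left out and 22746 tested. Platform annotation, with symbols updated from RefSeq (TAIR10.1) by Entrez number, paired 13436 probe sets with 1 locus each. RefSeq served only for names and the order of loci. The brightest probe set per locus was used. The difference, rns2-2 minus Col-0, came from limma 3.58.1 under R 4.3.3 (functions lmFit and eBayes, two-sided, Benjamini-Hochberg over all probe sets, threshold 0.05), without filter or block. Standard errors and 95% intervals are those of the fit, and precision is limited by having 3 arrays per genotype. The fit was tested on simulated data with independent arrays, which did not include the closeness of replicates 2 and 3 seen here. An exact permutation test of 3 against 3 arrays cannot give a p below 0.1 and was not used.

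One measured gene of the root hair list is not reported here. The members and lists were chosen with earlier results of these data known. Named were all members, all measured genes of the other expansin classes, up to 4 members per list by smallest p, and the 3 nearest profiles of EXPA4, EXPA15, EXPA7 and EXPA18. Alternatives were normalization, filters, prior, array weights, block and leaving out arrays.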

Additional observations from a re-analysis of the deposited data

How the results depend on the processing

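The count of alpha-expansins past the threshold was 0, and stayed 0 with quantile normalization, median centring, both filters, an intensity trend, a robust prior, replicates 2 and 3 averaged and an adjusted p under 0.1. It was 2 without adjustment, 2 with array weights (EXPA4 and EXPA15), 3 with replicates 2 and 3 only (EXPA4, EXPA8 and EXPA15), and between 0 and 2 on omission of 1 array, with 2 (EXPA4 and EXPA8) without replicate 1 of Col-0. The share of all probe sets past the threshold rose as well, to 1.91% with array weights, 14.3% with replicates 2 and 3 only and 1.46% without replicate 1 of Col-0. The settings that can move a member's estimate are normalization, array weights and the choice of arrays, 11 in all. Under these, 95 of 110 values of single members had the sign of the reported value and 15 did not, and EXPA4, EXPA8, EXPA15, EXPA20 and EXPA24 did in all 11. The filters, priors, block and probe set choice change only the error or the adjustment. Signs turned without single arrays for EXPA7 (-0.35 to 0.49), EXPA9 (-0.031 to 0.65), EXPA16 (-0.46 to 1.01) and EXPA21 (-0.062 to 0.076). With replicates 2 and 3 only they turned for EXPA7 (-0.54), EXPA9 (-0.16) and EXPA18 (-0.034), with these replicates averaged for EXPA16 (-0.29) and EXPA21 (0.021), with array weights for EXPA7 (-0.17), and with quantile normalization for EXPA21 (0.090). The gap between root-hair and other alpha-expansins was -0.41. It was -1.08 with replicates 2 and 3 only, -1.11 against only the others brighter than the median, an alternative chosen after the data were seen, -0.073 with replicates 2 and 3 averaged and -0.17 with medians over the members. Without single arrays it ran from -0.78 to -0.13. With the replicate block, which cannot move the differences in this balanced design, 0 members passed, and the limma adjusted p of EXPA4 (1.63) was 0.488. Deviations from the genotype means correlated, for arrays of the same number, at 0.059, -0.062 and 0.14. These low values showed no clear pairing by number, but with 3 arrays per genotype they cannot exclude it. Apart from fewer samples, the cause of these shifts was not tested. No member had a second probe set to choose. Signals below the array medians could not be set against background.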
